A study of Bos taurus with 45 samples.

Results

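The genes described here are the Wnt ligands, their frizzled receptors, co-receptors and secreted inhibitors, together with the hedgehog ligand IHH and its receptors, modulators and transcription factors. They were chosen by gene symbol: every numbered WNT, FZD, SFRP and DKK gene of the count tables, and ROR1, ROR2, RYK, LRP5, LRP6, GAS1, PTCH1, SMO, IHH, HHIP, GLI1, GLI2 and GLI3. This gave 50 of the 27270 genes of the endometrial table and 42 of the 16149 genes of the conceptus table, all of them among the 50. The other 8 (DKK4, SFRP4, SFRP5, WNT1, WNT2, WNT8A, WNT8B and WNT9B) were measured in endometrium only. After the low-count filter 43 members were tested in endometrium and 39 in conceptus tissue. DKK4, WNT1, WNT3, WNT3A, WNT8A, WNT8B and WNT9B were left out in endometrium, and SFRP2, WNT3 and WNT10B in conceptus tissue.

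Wnt proteins are lipid-modified ligands that bind frizzled receptors. With LRP5 or LRP6 as co-receptor they stabilise beta-catenin, while ROR1, ROR2 and RYK pass on signals that do not need it, and DKK and SFRP proteins hold ligands or co-receptors back. Hedgehog ligands bind PTCH1, which otherwise keeps SMO silent, and GLI factors carry the signal to target genes, among them PTCH1, GLI1 and HHIP. In the mouse uterus IHH is made by epithelium under progesterone and acts on the stroma below it, and Wnt signals are needed for gland formation, implantation and decidualization.

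The study asked how Day 16 bovine endometrium and the elongating conceptus change each other's transcripts when cultured together. Intercaruncular endometrial explants came from synchronized Angus-Holstein heifers that stayed cyclic, and sections of elongated in vivo derived (IVD) conceptuses came from heifers bred by artificial insemination with 1 sire. Tissues were kept for 12 h in RPMI medium with dialyzed serum, either alone or with an explant and a section together.

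The 4 groups were endometrium alone (Endo, n = 13 uteri), endometrium with an IVD conceptus section (Endo-IVD Conc endometrium, n = 15 explants), conceptus sections alone (IVD Conc, n = 8 conceptuses) and conceptus sections with endometrium (Endo-IVD Conc conceptus, n = 9 sections). The co-cultured explants came from 11 of the 13 uteri (a pair of explants from 4 uteri), and the co-cultured sections from 7 of the 8 conceptuses, 2 of which gave a pair of sections. Both kinds of co-culture were compared with the same tissue alone. The tests take sections and explants of 1 animal as independent. Animals are named by the numbers in the library names.

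Library totals ran from 44.21 to 63.97 M counts in endometrium and from 58.58 to 104.44 M in conceptus tissue. Among endometrial stroma markers, COL3A1 and DCN were at most 0.570 and 2.03 CPM in any section, while PDGFRA, COL1A1 and LUM reached 109, 108 and 65.2 CPM. Among trophoblast markers, CDX2, IFNT3, TKDP1, PAG2, PAG8, PAG11 and PAG12 were at most 0.158 CPM in any explant, while PTGS2, GATA2 and SSLP1 reached 721.5, 266 and 31.4 CPM. Of 8 smooth muscle markers tested, 3 (ACTG2, MYH11 and DES) were more abundant in co-cultured explants, and the list summed to 289.9 to 1612 CPM in Endo and 532.2 to 8016 CPM in Endo-IVD Conc endometrium. With the uterus as a block 0 of these 8 were called. Of 8 endothelial markers 2 were less abundant, PECAM1 (log2 fold change -0.97) and EMCN (-0.48), and 4 with the block, which also called 1 more abundant, and the part of these cells in the members' levels was not tested. The number of genes called in conceptus tissue, 530 higher and 538 lower, fell to 49 and 47 without conceptus 26. Levels are given as CPM (counts scaled to a library of 1 M), and changes are log2 of co-culture over mono-culture. A gene was called where its edgeR p value, adjusted over all genes tested (p.adj), did not exceed 0.05, and SE is the standard error of a log2 value. In whole tissue, fewer cells of a type and less RNA per cell cannot be told apart.

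Few of these genes were called between cultures. In endometrium 1 of 43 members was called higher (LRP6), against 4.98% of all genes tested, and 0 lower, against 2.15% (7.13% in either direction). In conceptus tissue 0 of 39 were called higher, against 3.59%, and 2 lower (GAS1 and ROR1), against 3.65% of all genes (7.24% in either direction, and 5.96% without the low-count filter, which left the count at 2). Of the 43 endometrial members, 36 had a log2 fold change within 0.5 of 0, and the median was -0.05, beside -0.04 over all genes tested. The share of all genes within 0.5 of 0 was not counted. The 39 conceptus members had a median of -0.26, beside 0.01 over all genes, with 13 above and 26 below 0. Of the 43 endometrial members, 0 moved 1 way in all 11 uteri with both cultures, as 3.53% of all genes did upward and 1.15% downward.

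**Figure D1:**
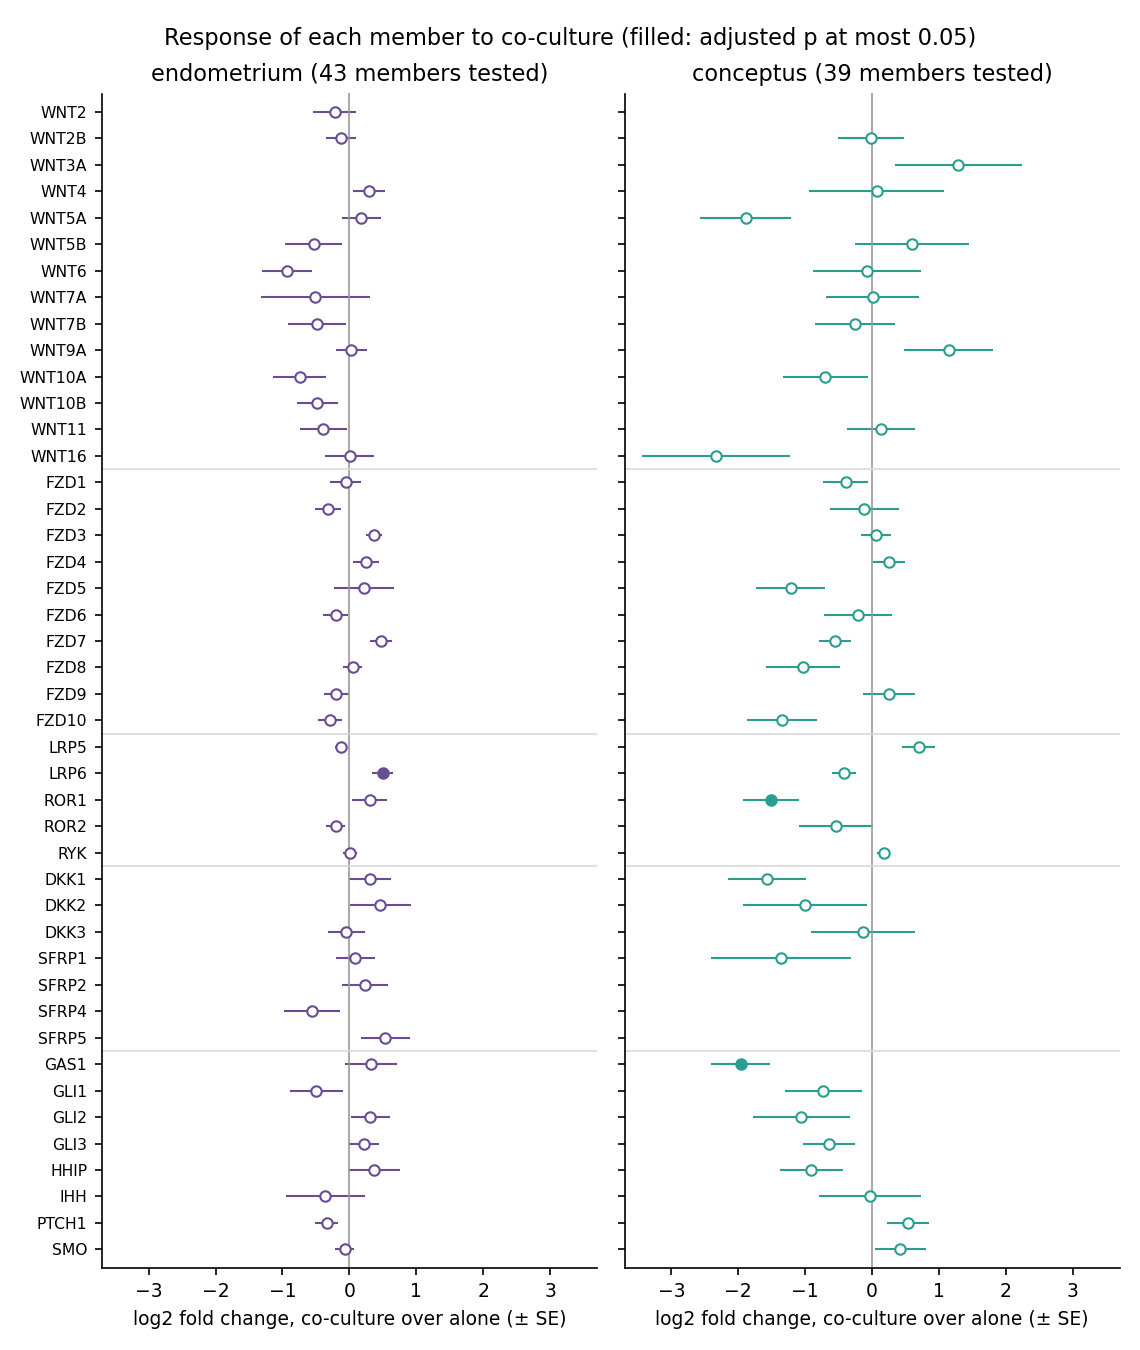
Log2 fold change of co-culture over mono-culture with its standard error, for the 43 members tested in endometrial explants (left) and the 39 tested in conceptus sections (right), grouped into ligands, frizzled receptors, other receptors, inhibitors and hedgehog genes. Filled points passed the test: LRP6 at 0.50 in endometrium, GAS1 at -1.97 and ROR1 at -1.51 in conceptus tissue.

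GAS1, a cell surface protein that binds hedgehog ligands and acts with PTCH1 as a co-receptor, was less abundant in conceptus sections cultured with endometrium. In IVD Conc it ran from 1.96 through a median of 2.87 to 5.08 CPM (3.28 ± 1.19, SD, n = 8). The level in Endo-IVD Conc conceptus ran from 0.183 through 0.528 to 1.85 CPM (0.837 ± 0.644, SD, n = 9). Every section cultured alone was above every co-cultured section. The log2 fold change was -1.97 (SE 0.44, edgeR p.adj = 0.0179), and GAS1 was lower in 7 of 7 conceptuses with both cultures. It was the only member whose groups did not overlap in this direction, as 0.746% of all genes did, and no member lay wholly higher, as 0.427% did. The counts behind these levels were 154 to 487 reads per library alone and 14 to 139 in co-culture.

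Among co-cultured sections GAS1 was highest in conceptus 50 (1.85 CPM) and conceptus 66 (1.79 CPM), both on uterus 38, and lowest in those of conceptus 26, on uterus 39 (0.183 CPM) and uterus 14 (0.280 CPM). The erythroid gene HBA stood at 1.16 and 1.63 CPM in the sections on uterus 38, at 11.4 to 69.3 CPM in the other 7 co-cultured sections and at 0.417 to 2.02 CPM alone, and its part in the GAS1 difference was not tested. The edgeR adjusted p for GAS1 rose above 0.05 without conceptus 26 (0.0580), 47 (0.0600), 71 (0.0636) or 8 (0.0540), at log2 fold changes of -1.73 to -1.96. These fits called 0.658% (without conceptus 26) to 2.03% (without conceptus 47) of all genes, beside 7.24% with every conceptus. With the mean log2 level of the hypoblast markers in the fit the log2 fold change of GAS1 was -1.97 (adjusted p = 0.00992), and without the sections richest in POU5F1, which marks the embryonic disc, -2.07 (adjusted p = 0.0420). Both the fit with the hypoblast level and the fit without those sections were chosen after seeing the data.

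ROR1, a receptor tyrosine kinase-like protein that binds WNT5A, was the other member less abundant in co-cultured sections. It ran from 2.64 through 7.22 to 20.2 CPM in IVD Conc (8.33 ± 6.11, SD, n = 8). With endometrium it ran from 1.19 through 3.01 to 5.86 CPM (2.92 ± 1.42, SD, n = 9). The groups overlapped: conceptuses 66, 71, 47 and 8 had 2.64 to 4.08 CPM alone, within the range of the co-cultured sections, while conceptuses 5, 26, 22 and 50 had 10.3 to 20.2 CPM. The log2 fold change was -1.51 (SE 0.42, edgeR p.adj = 0.0415), with a lower level in 7 of 7 conceptuses. The call was lost when any 1 conceptus was left out. The edgeR adjusted p was then 0.0527 (without conceptus 22), 0.0534 (66), 0.0587 (50), 0.0700 (71), 0.0837 (47), 0.0847 (8), 0.0853 (5) or 0.130 (26). The log2 fold changes of these fits ran from -1.65 to -1.19. They called 0.658% (without conceptus 26) to 3.47% (without conceptus 5) of all genes, and 8.7% without conceptus 50, beside 7.24% with every conceptus. ROR1 was not called with the culture set as a block, at -1.23 (0.0842), nor without the 2 sections richest in POU5F1, at -1.62 (0.0621). It was called with the hypoblast level in the fit, at -1.18 (0.0171). The culture set is not named in the labels and was inferred here. It joined uteri that shared a conceptus, kept uterus 38 by itself, and joined uteri 15 and 17, which had no co-culture.

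**Figure D2:**
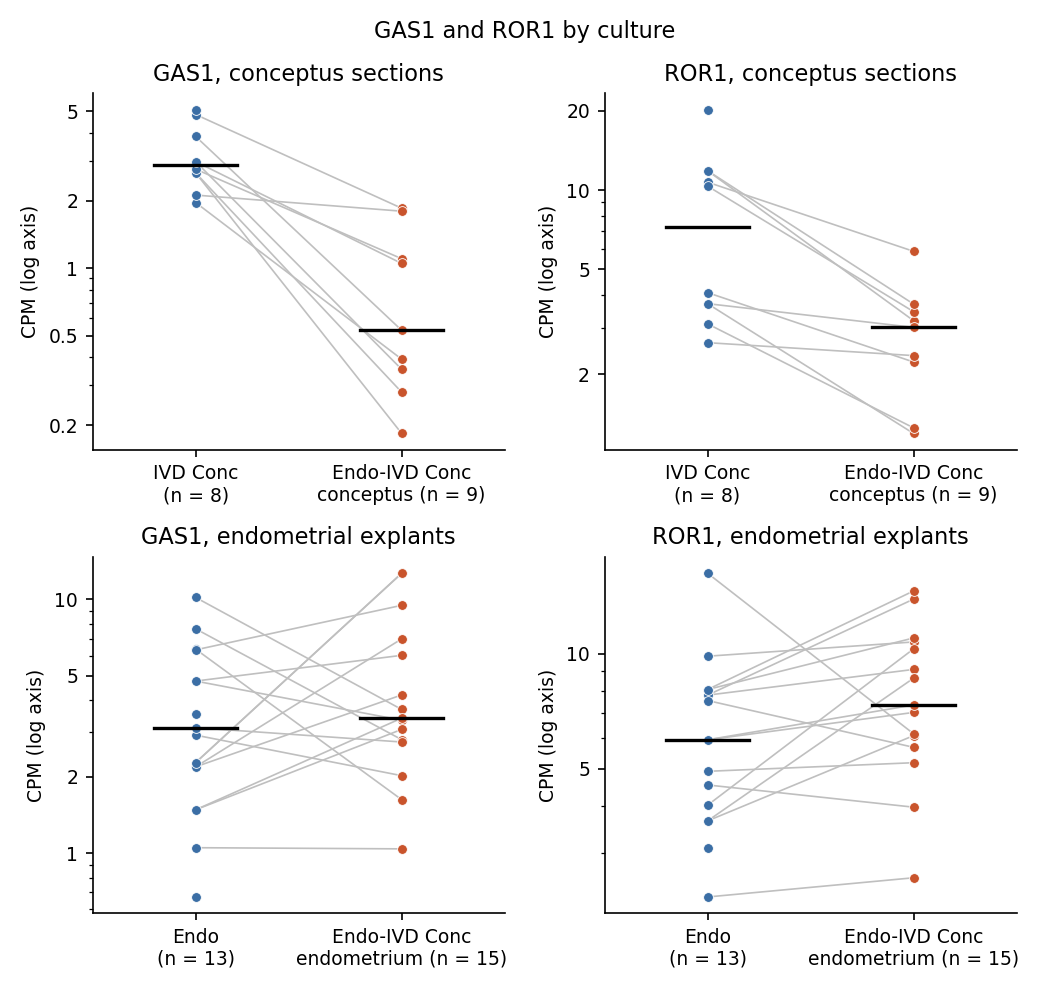
CPM of GAS1 (left) and ROR1 (right) on log axes in conceptus sections (top) and endometrial explants (bottom), each point a library, lines joining libraries of 1 animal and bars marking medians. In conceptus tissue the median of GAS1 went from 2.87 to 0.528 CPM and that of ROR1 from 7.22 to 3.01 CPM, while in endometrium the lines cross in both directions.

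In endometrium neither gene was called. GAS1 had 0.671, 3.12 and 10.2 CPM as lowest, median and highest in Endo (4.04 ± 2.85, SD, n = 13) and 1.04, 3.40 and 12.7 CPM in Endo-IVD Conc endometrium (5.05 ± 3.78, SD, n = 15). Its log2 fold change was 0.32 (SE 0.39, edgeR p.adj = 0.713), with a higher level in 4 of 11 uteri and a lower one in 7. Both explants of uterus 38 were highest, at 12.7 CPM each, beside 2.27 CPM in that uterus alone, and without uterus 38 the sign turned to -0.11. ROR1 had 2.31, 5.95 and 16.2 CPM in Endo (6.61 ± 3.69, SD, n = 13) and 2.59, 7.34 and 14.6 CPM in Endo-IVD Conc endometrium (8.15 ± 3.47, SD, n = 15). That was a log2 fold change of 0.30 (SE 0.26, edgeR p.adj = 0.576), and the groups overlapped over most of their range.

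LRP6, the co-receptor that frizzled proteins need to signal through beta-catenin, was more abundant in endometrium cultured with a conceptus section. It ran from 9.82 through 17.1 to 24.0 CPM in Endo (16.6 ± 4.12, SD, n = 13) and from 12.2 through 24.0 to 35.5 CPM in Endo-IVD Conc endometrium (23.5 ± 7.01, SD, n = 15). The log2 fold change was 0.50 (SE 0.16, edgeR p.adj = 0.0469), with a higher level in 10 of 11 uteri. The groups overlapped, and the highest co-cultured levels were in explants of uterus 19 (35.5 CPM), 38 (32.9 CPM), 69 (31.4 CPM) and 14 (30.0 CPM). LRP6 lay close to the threshold. Its edgeR adjusted p rose above 0.05 without uterus 14 (0.104), 17 (0.0584), 19 (0.0822), 38 (0.158), 39 (0.0786), 69 (0.0885) or 70 (0.0768). It was 0.0606 with the uterus as a block on summed co-cultures (log2 fold change 0.42), 0.125 with the culture set as a block (0.43) and 0.0519 without the low-count filter (0.50). With the mean smooth muscle level in the fit, an alternative chosen after seeing the data, the log2 fold change was 0.33 and the adjusted p 0.223. They were 0.38 and 0.249 without uteri 38 and 69, where ACTG2 reached 953 and 457 CPM in co-culture.

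FZD3, a frizzled receptor with roles in axon guidance and planar polarity, lay just outside the threshold. It ran from 3.84 through 5.49 to 8.87 CPM in Endo (5.63 ± 1.38, SD, n = 13) and from 5.08 through 6.88 to 9.22 CPM in Endo-IVD Conc endometrium (7.30 ± 1.23, SD, n = 15). Its log2 fold change was 0.37 (SE 0.12, edgeR p.adj = 0.0569), and it was higher in 10 of 11 uteri, uterus 70 being the exception. With the uterus as a replicate block it was called (adjusted p = 0.0311), which made 2 members called higher with that block, against 6.69% of all genes. With that block on summed co-cultures FZD3 was not called (0.368, adjusted p = 0.105). The mono-cultured explant of uterus 17, which has no co-cultured partner, held the highest Endo level, and without it the adjusted p was 0.0118. Without uterus 70 it was 0.0280. In 11 of the 13 refits that each left out 1 uterus FZD3 was not called, with edgeR adjusted p up to 0.158.

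Of the 13 endometrial Wnt ligands tested, 0 were called, and their median log2 fold change was -0.39. WNT6 lay lowest at -0.93 (SE 0.37, edgeR p.adj = 0.131), with 0.860, 3.05 and 8.46 CPM in Endo, 0.547, 1.51 and 4.43 CPM in co-culture and a lower level in 9 of 11 uteri. WNT5A, a ligand of ROR receptors made by stroma in the mouse uterus, had a log2 fold change of 0.18 (SE 0.29). WNT7A, which the mouse luminal epithelium makes and needs for uterine glands, had -0.51 (SE 0.81), and WNT4, needed for decidualization in the mouse, 0.30 (SE 0.24). The 10 frizzled receptors lay between -0.32 (FZD2) and 0.47 (FZD7, adjusted p = 0.0935). The 7 secreted inhibitors tested lay between -0.56 (SFRP4) and 0.54 (SFRP5), and 0 were called.

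WNT9B, a ligand with a known role in mouse kidney tubules and the female reproductive duct, failed the low-count filter and was singled out after its values were seen. It had 28 reads in all 13 Endo libraries together, 0 in 6 of them, and 243 in the 15 co-cultured ones, 0 in 1. The levels were 0, 0.0338 and 0.128 CPM as lowest, median and highest in Endo and 0, 0.316 and 0.791 CPM in Endo-IVD Conc endometrium. They overlapped, but 10 of 11 uteri were higher in co-culture, uterus 45 being the exception. With no low-count filter edgeR gave a log2 fold change of 2.92 (adjusted p = 0.00154), a call made for 3.4% of genes in the higher direction, 1.09% in the lower and 4.49% in either. DESeq2 gave 3.00 (adjusted p = 5.91e-06), and called 3 members, WNT9B, LRP6 and FZD3, all higher, against 5.17% of genes higher and 8.02% in either direction. The WNT9B levels rest on 0 to 8 reads per library alone and 0 to 49 in co-culture. The other 6 members under the filter had at most 36 reads in any explant, apart from WNT3A, a ligand that acts through beta-catenin, which reached 532 reads in uterus 45.

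**Figure D3:**
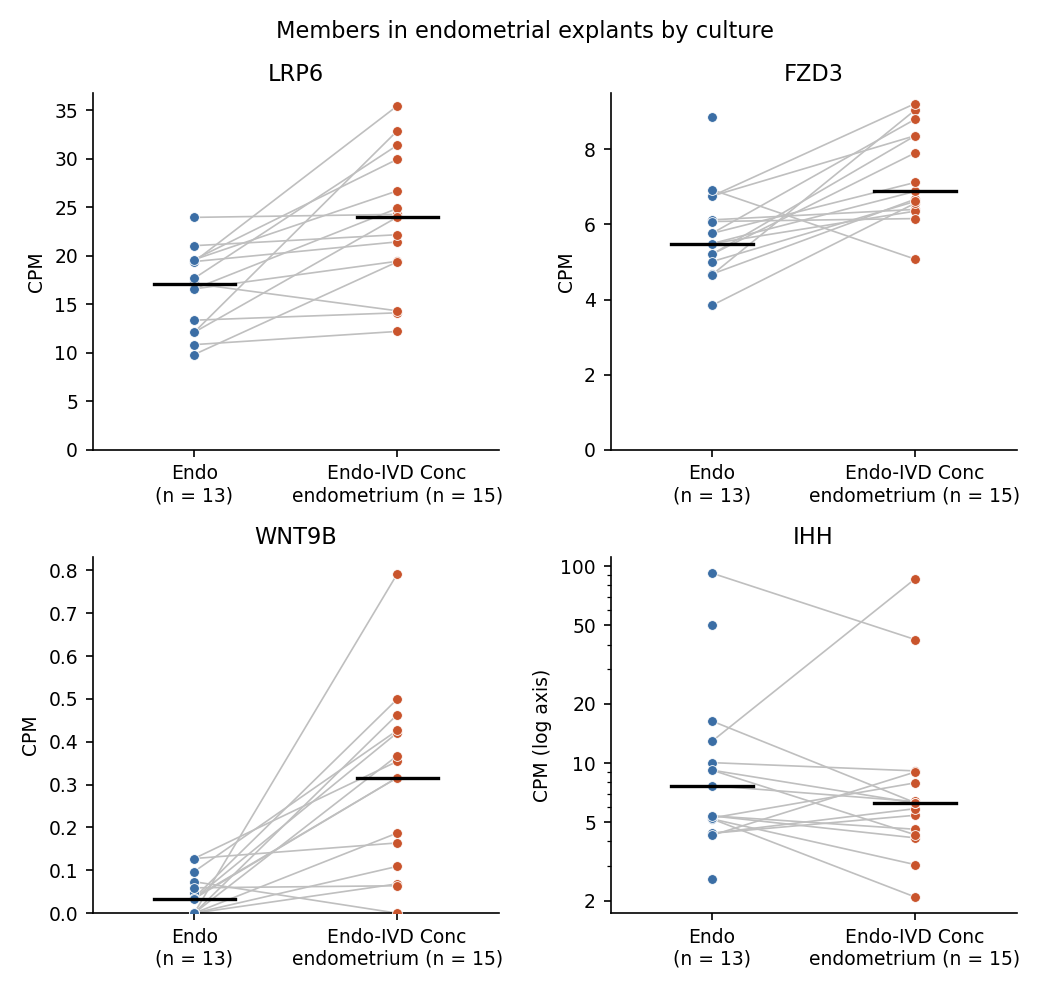
CPM of LRP6, FZD3 and WNT9B (linear axes from 0) and IHH (log axis) in endometrial explants cultured alone or with an IVD conceptus section, lines joining explants of 1 uterus and bars marking medians. For LRP6 and for WNT9B, 10 of 11 uteri had the higher level with a conceptus section, and IHH reached 92.2 CPM alone and 86.2 CPM in co-culture in different uteri.

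IHH, the hedgehog ligand made by uterine epithelium in the mouse, differed widely among uteri. In Endo it ran from 2.57 through 7.67 to 92.2 CPM (17.4 ± 25.7, SD, n = 13) and in Endo-IVD Conc endometrium from 2.09 through 6.27 to 86.2 CPM (13.5 ± 22.3, SD, n = 15). The log2 fold change was -0.36 (SE 0.59, edgeR p.adj = 0.812), and without uterus 53 it turned to 0.04. Uteri 53 (92.2 CPM) and 17 (50.4 CPM) stood above the other 11, which had 2.57 to 16.3 CPM. In co-culture uterus 53 was again high at 42.4 CPM, but the highest level was in uterus 16, at 86.2 CPM against 12.9 CPM alone. That explant held 0.102 CPM of GATA4 and 0.0171 CPM of CDX2, which stood at 138 and 4.14 CPM in the section of its partner, conceptus 5, cultured alone. Among epithelial markers, EPCAM stood at 330 CPM in that explant and at 50.2 CPM in uterus 16 alone. KRT8 stood at 374 and 67.7 CPM, and FOXA2 at 19.5 and 3.11 CPM. OVGP1 (2.67 and 2.80 CPM) and PIGR (0.1025 and 0.158 CPM) lay the other way. The part of conceptus or epithelial cells in the IHH level was not tested.

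The levels of hedgehog targets were set against IHH across the 13 Endo uteri. PTCH1, the hedgehog receptor, had 21.5, 27.9 and 67.2 CPM as lowest, median and highest, and GLI1, a transcription factor that hedgehog signals induce, had 2.14, 4.66 and 34.4 CPM. Both were highest in uterus 15, where IHH was lowest. Across uteri the log2 level of IHH correlated with that of PTCH1 at Pearson r = 0.25 (two-sided permutation p = 0.418, adjusted over 5 relations 0.881) and Spearman rho = 0.269 (permutation p = 0.374, adjusted 0.962). Without the 2 uteri farthest in IHH, 53 and 17, r was -0.35. Leaving out each of the 13 uteri in turn gave r with PTCH1 from -0.0845 to 0.764, and 1 of these refits turned direction. The highest was without uterus 15 (permutation p adjusted over the 5 relations 0.0325). It was singled out as the most extreme refit after the values were seen. With GLI1, HHIP, GAS1 and NR2F2, a stromal factor downstream of IHH in the mouse, r was 0.0481, 0.107, -0.0925 and -0.266, with rho of 0.022, 0.0385, -0.011 and -0.264 (permutation p of r 0.388 or more, adjusted 0.881, and of rho 0.385 or more, adjusted 0.962 or more). Leaving out uteri 53 and 17 gave r of -0.136, 0.0874, -0.0567 and -0.274 for these 4. The culture sets held too few uteri for a value within each.

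The other endometrial hedgehog genes were not called. GLI2 and GLI3, which act as activator and repressor of hedgehog targets, had log2 fold changes of 0.31 (SE 0.29) and 0.22 (SE 0.23). HHIP, a membrane protein that captures hedgehog ligands, had 0.37 (SE 0.38), and SMO, the signal transducer, had -0.07 (SE 0.14). PTCH1 had -0.34 (SE 0.17, edgeR p.adj = 0.278), with 16.7, 23.2 and 45.4 CPM in co-culture and a lower level in 8 of 11 uteri. GLI1 had -0.49 (SE 0.39), but was higher in 7 of the 11 uteri with both cultures. Uterus 15, with 34.4 CPM, was cultured alone only.

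Many members varied widely among uteri. The biological coefficient of variation from edgeR, the replicate spread beyond counting error, was above the median of all genes (0.328) for 34 of the 43 members. WNT7A had the widest spread (1.40, at the 99.6 percentile of all genes), with 0.0319 CPM in uterus 39 and 25.1 CPM in uterus 15 alone, and IHH followed at 1.00. LRP5 (0.188) and RYK (0.216), receptors with broad expression, were the steadiest. WNT3A was at 9.76 CPM in uterus 45 alone and at 4.98 CPM in the same uterus in co-culture, and at most 1.55 CPM in any other explant. Uterus 15 held the highest Endo level of 9 of the 43 members (20.9%), as it did for 15.7% of all genes, and uterus 16 of another 9 (20.9%), beside 10.6% of all genes.

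In conceptus tissue, the members besides GAS1 and ROR1 did not pass the test, and most had a log2 fold change below 0. FZD10, a frizzled receptor, ran from 4.52 through 13.9 to 81.7 CPM in IVD Conc (25.7 ± 26.4, SD, n = 8) and from 4.60 through 10.1 to 19.5 CPM in Endo-IVD Conc conceptus (10.1 ± 5.30, SD, n = 9). Its log2 fold change was -1.35 (SE 0.52, edgeR p.adj = 0.116), and it was lower in 6 of 7 conceptuses. With the conceptus as a replicate block it was called at -1.21 (adjusted p = 0.0315). That made 3 members called lower with the block, against 2.16% of all genes, with GAS1 at -2.05 (adjusted p = 0.0261) and ROR1 at -1.09 (adjusted p = 0.0331) remaining among them. The groups overlapped, the section of conceptus 71 alone standing highest at 81.7 CPM and its co-cultured section at 19.5 CPM also heading its group.

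DKK1, an inhibitor that binds LRP5 and LRP6, ran from 3.45 through 8.65 to 35.4 CPM in IVD Conc (11.9 ± 10.4, SD, n = 8) and from 0.393 through 3.85 to 8.97 CPM in Endo-IVD Conc conceptus (3.98 ± 3.21, SD, n = 9). The log2 fold change was -1.57 (SE 0.58, edgeR p.adj = 0.102). Sections of conceptus 50 were highest in both cultures. LRP5 lay in the other direction at 0.70 (SE 0.24, edgeR p.adj = 0.0860), from 29.3, 55.5 and 83.6 CPM alone to 49.9, 75.7 and 165 CPM in co-culture. LRP6 lay at -0.42 (SE 0.18, adjusted p = 0.153), from 19.8, 25.6 and 32.2 CPM to 9.71, 20.8 and 25.2 CPM. Taking the mean of sections of 1 conceptus, DKK1, GAS1, HHIP, LRP6 and ROR1 were lower in all 7 conceptuses (5 of 39 members, against 7.59% of all genes) and LRP5 was higher in all 7 (1 of 39, against 8.43%). DESeq2 called DKK1, GAS1, ROR1 and WNT5A lower and LRP5 higher, 5 members, where it called 7.38% of all genes lower, 8.35% higher and 15.7% in either direction.

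By class, the 12 conceptus Wnt ligands tested had a median log2 fold change of -0.004, from WNT16 at -2.34 (SE 1.11) to WNT3A at 1.29 (SE 0.95). WNT5A, the ligand of ROR1, lay at -1.89 (SE 0.68, edgeR p.adj = 0.0916), with 0.151, 0.870 and 4.77 CPM alone and 0.131, 0.287 and 1.49 CPM in co-culture. The 10 frizzled receptors had a median of -0.31 and the 4 secreted inhibitors tested one of -1.18. Of the 8 hedgehog genes, with a median of -0.69, PTCH1 (0.54, SE 0.31) and SMO (0.42, SE 0.38) lay above 0. IHH was not called, at -0.03 (SE 0.76, edgeR p.adj = 0.985), with 5.18, 40.7 and 99.5 CPM in IVD Conc (48.5 ± 43.8, SD, n = 8) and 2.99, 30.5 and 129 CPM in Endo-IVD Conc conceptus (47.5 ± 44.6, SD, n = 9).

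The responses of the tissues were set against each other in 1 fit of the 38 members tested in both. Of these, 7 differed between endometrium and conceptus tissue, 6 with the higher log2 fold change in endometrium (against 7.61% of all genes) and 1 with the lower (against 10%), where 17.6% of all genes differed in either direction. GAS1 differed by 2.29 (SE 0.62, edgeR p.adj = 0.00822) and ROR1 by 1.81 (SE 0.48, adjusted p = 0.00689). LRP6 and LRP5, the co-receptors of frizzled proteins, differed in opposite directions. LRP6 was higher by 0.92 in endometrium (SE 0.25, adjusted p = 0.00812), and LRP5 differed by -0.82 (SE 0.23, adjusted p = 0.01).

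FZD7, a frizzled receptor known from stem cells and early embryos, differed by 1.02 (SE 0.29, edgeR p.adj = 0.0115). WNT5A differed by 2.05 (SE 0.65, adjusted p = 0.0241) and DKK1 by 1.89 (SE 0.62, adjusted p = 0.0297). The WNT5A call was lost without conceptus 26 (0.170) or conceptus 5 (0.0564) and with the animal as a replicate block (0.0824), and the DKK1 call without uterus 38 (0.0701), conceptus 47 (0.0616) or conceptus 71 (0.0542). With the block, PTCH1 (-0.81, adjusted p = 0.0256), FZD10 (1.11, 0.00879) and WNT16 (2.04, 0.0222) were called too, which made 9 members against 22.5% of all genes. With limma voom the ROR1 difference was 1.262 (adjusted p = 0.0661) and that of WNT5A 1.25 (0.415), neither called, while GAS1, DKK1, LRP6 and FZD7 were called higher in endometrium (7.27% of all genes) and LRP5 and PTCH1 lower (7.79%).

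The sections themselves differed widely in many members, and some were split in the same way as GATA3, a marker of trophoblast. In 9 of the 39 members each of the 4 sections cultured alone that were richest in GATA3 (conceptuses 71, 8, 47 and 66) was above each of the other 4, and in 8 members the reverse held, a split chosen after the values were seen. The share of all genes split in either way was not counted, so these counts have no background beside them. Of 18 trophoblast markers 12 were split like GATA3 and 1, FOLR1, in reverse. The 12 include GATA3 itself, which defined the split. CDX2, ELF5, ETS2, PAG2 and PAG12 were split in neither way. Of 7 hypoblast markers 5 were split in reverse, and GATA6 and AFP in neither way. Of 5 embryonic disc markers 2, POU5F1 and TDGF1, were split in reverse as well, and LIN28A, NANOG and NODAL in neither way. WNT4 had 196 CPM in conceptus 47, 179.8 in conceptus 8, 179.7 in conceptus 71, 83.1 in conceptus 66, 14.4 in conceptus 26, 13.4 in conceptus 50, 3.93 in conceptus 22 and 0.149 in conceptus 5, all cultured alone. WNT5B had 89.5 CPM in conceptus 8, 88.4 in conceptus 47, 58.1 in conceptus 71, 42.4 in conceptus 66, 26.5 in conceptus 26, 8.82 in conceptus 50, 5.16 in conceptus 22 and 0.206 in conceptus 5. GATA3, a transcription factor, had 294 CPM in conceptus 71, 249 in conceptus 8, 240.4 in conceptus 47, 239 in conceptus 66, 61.7 in conceptus 26, 39.5 in conceptus 50, 12.5 in conceptus 22 and 1.85 in conceptus 5. The 4 sections with the most GATA3 were thus the 4 with the most WNT4 and WNT5B, and conceptus 5 was lowest for all of them.

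WNT6, WNT7A, WNT7B, WNT10A and FZD6 were arranged in the same way. WNT6 had 156 CPM in conceptus 71, 92.5 in conceptus 47, 68.0 in conceptus 66 and 62.1 in conceptus 8, against 1.256 to 12.0 CPM in the other 4. FZD6 had 40.7 to 50.6 CPM in the first 4 and 3.48 to 19.8 CPM in the others. FZD5 and FZD10, too, had their highest level in conceptus 71 (16.5 and 81.7 CPM). The highest level alone was 1320.0 times the lowest for WNT4, 435 times for WNT5B and 124 times for WNT6, but 1.48 times for RYK and 1.62 times for LRP6, 2 broadly expressed receptors.

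IHH ran the other way. It had 99.5 CPM in conceptus 50, 93.5 in conceptus 5, 93.2 in conceptus 22 and 68.1 in conceptus 26, and 13.3 in conceptus 66, 8.88 in conceptus 8, 6.69 in conceptus 47 and 5.18 in conceptus 71. GATA4, a transcription factor of hypoblast, had 138 CPM in conceptus 5, 127 in conceptus 22, 117 in conceptus 50 and 60.0 in conceptus 26, and 14.3 to 34.7 CPM in the other 4. In the mouse Ihh is made by the visceral endoderm, the counterpart of the hypoblast. GLI3 (28.8 to 34.7 CPM in conceptuses 5, 22 and 50, and at most 17.6 CPM elsewhere) and HHIP (3.23 to 8.28 CPM in conceptuses 5, 22, 26 and 50, and 0.607 to 2.09 CPM in the others) were high in the sections rich in IHH and GATA4. So was ROR1, as given above, and FZD8, at 10.5 CPM in conceptus 5 and 4.92 CPM in conceptus 22. Each section is a small piece of an elongated conceptus, and the site of each along its length is not known here. These are levels side by side in 8 libraries, with no test.

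**Figure D4:**
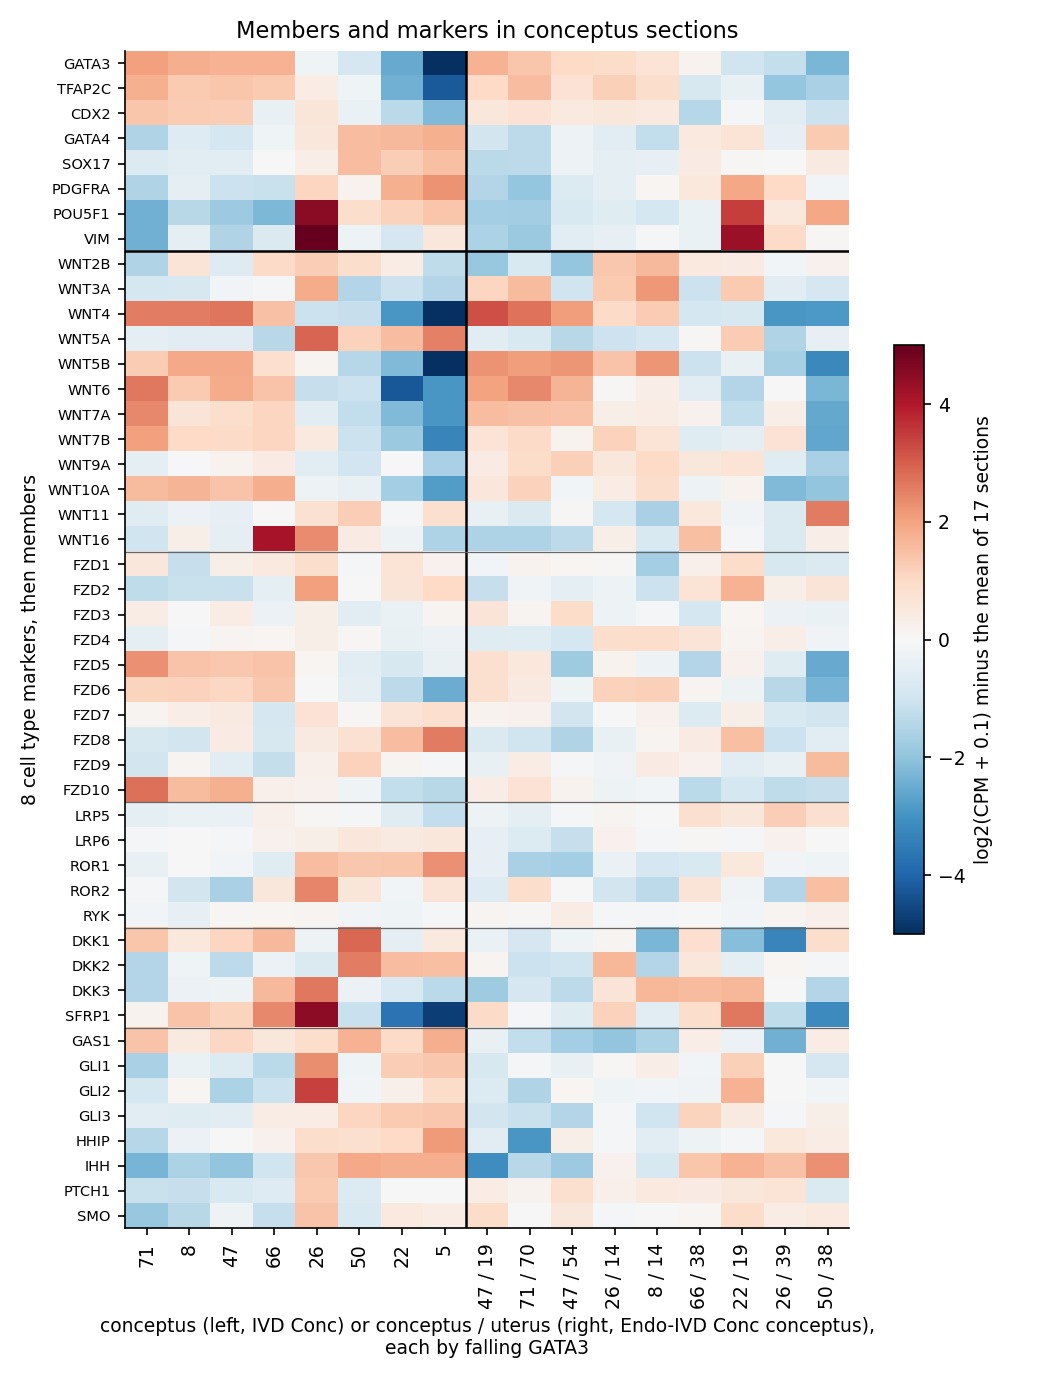
Log2(CPM + 0.1) of 8 cell type markers (top rows) and the 39 members tested, minus each gene's mean over the 17 sections, with sections cultured alone on the left and co-cultured ones on the right, each ordered by falling GATA3 (colours end 5 log2 units either side). Among sections cultured alone, WNT4, WNT5B and WNT6 are high where GATA3 is high, and IHH and GLI3 where GATA4 is high. Of these sections, that of conceptus 26, which is rich in POU5F1 and VIM, holds the peak of 14 members.

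The section of conceptus 26 cultured alone held the highest level of 14 of the 39 members (35.9%), where it held the highest of 8.69% of all genes. These were the ligands WNT2B, WNT3A and WNT5A, the receptors FZD1, FZD2, FZD4, ROR2 and RYK, the inhibitors DKK3 and SFRP1, and PTCH1, SMO, GLI1 and GLI2. SFRP1 had 57.6 CPM there and at most 13.8 CPM in the other 7 sections alone. GLI2 had 6.47 CPM, against at most 1.06 CPM, and PTCH1 35.8 CPM, against at most 14.9 CPM. Of the 5 embryonic disc markers, this section held the most POU5F1 (92.2 CPM), NANOG (10.4 CPM), NODAL (2.096 CPM) and LIN28A (91.3 CPM), against at most 10.4, 0.169, 0.107 and 84.4 CPM in the other 7. TDGF1 was at 62.9 CPM there, and higher in conceptuses 5 (228 CPM) and 22 (119 CPM). The section also held 38.5 CPM of the mesenchymal gene VIM and 80.5 CPM of AFP, against at most 1.62 and 0.139 CPM. The part of embryonic disc tissue in these levels was not tested.

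Among co-cultured sections, that of conceptus 22 on uterus 19 had the most POU5F1 (44.0 CPM), NANOG (3.17 CPM), NODAL (0.539 CPM) and VIM (23.3 CPM). It held 103.5 CPM of LIN28A and 61.3 CPM of TDGF1, below the 161 and 122 CPM of conceptus 26 on uterus 39. It also had the highest co-cultured level of SFRP1 (16.1 CPM), GLI1 (1.44 CPM), GLI2 (1.96 CPM), WNT5A (1.49 CPM), FZD2 (11.8 CPM), ROR1 (5.86 CPM) and FZD8 (4.73 CPM). The 2 co-cultured sections of conceptus 26 held at most 5.72 CPM of POU5F1. They differed from each other in WNT4, with 59.7 CPM on uterus 14 and 4.01 CPM on uterus 39, in GATA3, with 136 and 31.3 CPM, and in IHH, with 30.5 and 73.6 CPM. Both sections of conceptus 47 were high in WNT4, at 286 CPM on uterus 19 and 129 CPM on uterus 54. The spread beyond counting error was above the median of all genes (0.372) for 33 of the 39 conceptus members, from RYK at 0.187 to WNT16 at 1.51.

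Markers of the conceptus cell layers were read from the same fits. Of 18 trophoblast, 6 hypoblast and 3 embryonic disc markers tested, 0 were called. Hypoblast markers summed to 1804, 3152 and 5797 CPM as lowest, median and highest in IVD Conc and to 1412, 3434 and 9035 CPM in Endo-IVD Conc conceptus, most of it APOA1 (medians of 2872 and 3144 CPM). GATA4 had medians of 47.4 and 30.6 CPM, and the list's median log2 fold change was -0.30. Of 3 erythroid markers 2, HBA and HBM, were more abundant in co-cultured sections, HBA by a log2 fold change of 4.89 (adjusted p = 0.00654 from edgeR), and 1 of the 3 was called with the conceptus as a block.

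Set side by side, the members showed where each tissue stood when cultured alone. The tables were made with different aligners, so no test was run between tissues. Of 38 members, 5 had ranges wholly higher in endometrium, where 23% of all genes did. They were DKK3, a secreted relative of the DKK inhibitors (85.6 to 799 CPM in Endo and 0.119 to 3.73 CPM in IVD Conc), WNT5A (13.6 to 87.1 and 0.151 to 4.77 CPM), FZD1 (13.9 to 75.0 and 0.980 to 4.29 CPM), SMO (24.7 to 63.2 and 2.31 to 23.8 CPM) and WNT9A (0.583 to 2.07 and 0 to 0.316 CPM). Only FZD7 lay wholly higher in conceptus tissue, at 10.7 to 34.0 CPM against 3.61 to 7.09 CPM in Endo, where 16.1% of all genes did. The ranges of the other 32 overlapped, among them GAS1 at 0.671 to 10.2 and 1.96 to 5.08 CPM, and IHH at 2.57 to 92.2 and 5.18 to 99.5 CPM.

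**Figure D5:**
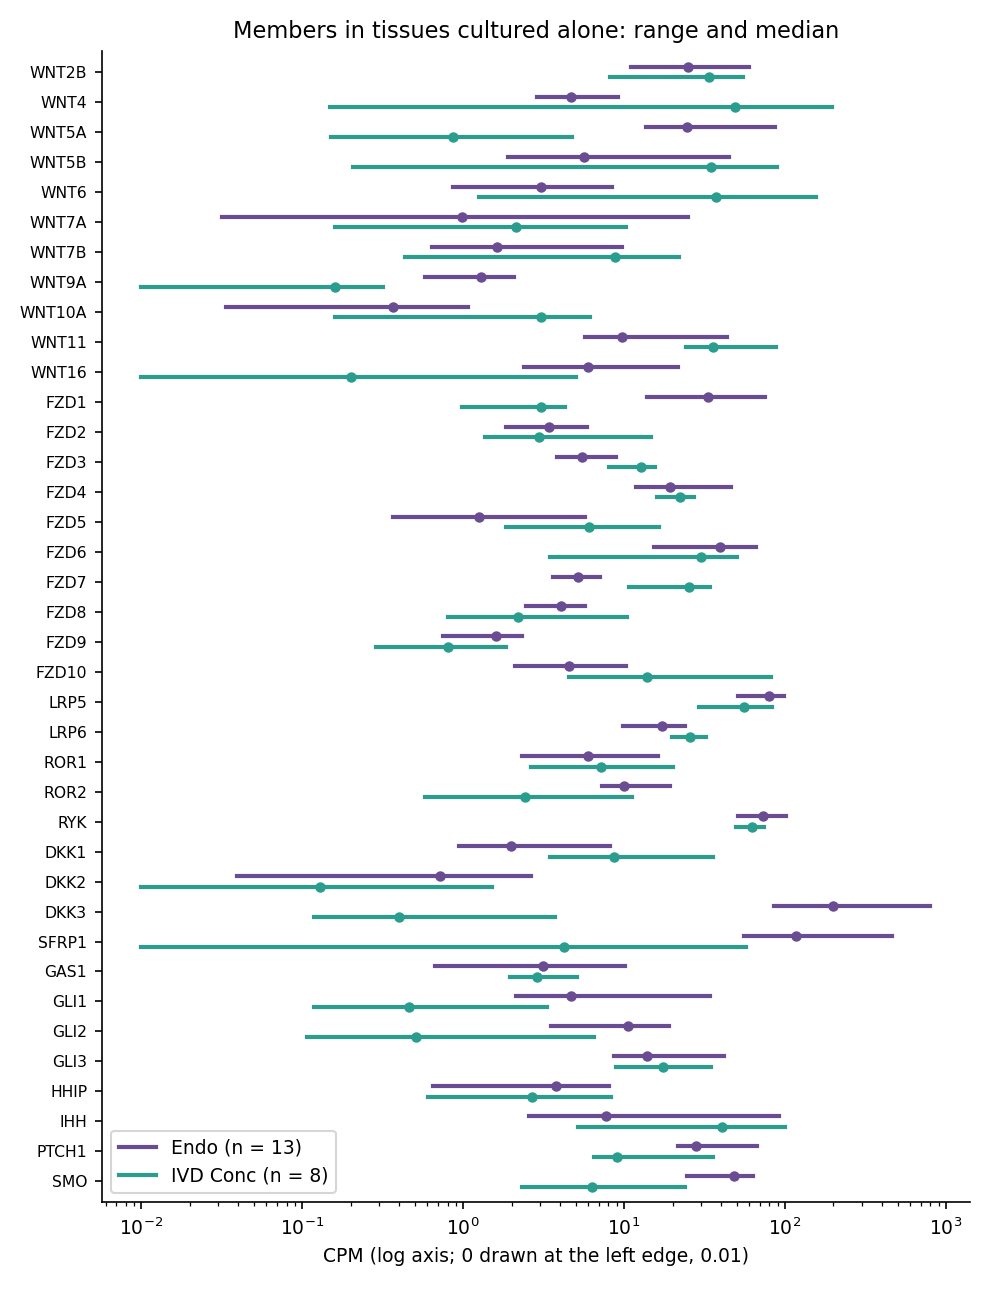
Range (line) and median (point) in CPM, on a log axis, of the 38 members tested in both tissues, in Endo (n = 13) and IVD Conc (n = 8). DKK3, WNT5A, FZD1, SMO and WNT9A lie wholly higher in endometrium and FZD7 in conceptus tissue, and WNT4 spans 0.149 to 196 CPM among conceptus sections.

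Other genes of both pathways, from lists written for this comparison, were read from the same fits. In endometrium 4 of 55 Wnt pathway genes outside the group were called higher, against 4.98% of all genes, and 0 lower, against 2.15%, with a median log2 fold change of -0.04. Of these 4, 1 (TLE4) was also called with the block by uterus. TLE4, a co-repressor that acts with TCF factors, went from 8.87, 18.2 and 33.6 CPM in Endo (19.7 ± 7.82, SD, n = 13) to 23.3, 40.9 and 62.6 CPM in co-culture (40.9 ± 12.8, SD, n = 15). That was a log2 fold change of 1.05 (SE 0.19, edgeR p.adj = 0.000308; 0.00135 with the block), with a higher level in 10 of 11 uteri.

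RSPO1 and RSPO3, secreted proteins that raise the sensitivity of cells to Wnt, were called at log2 fold changes of 3.69 (SE 0.81, edgeR p.adj = 0.00248) and 2.23 (SE 0.58, adjusted p = 0.0137). RSPO1 had 0, 0.247 and 1.06 CPM as lowest, median and highest in Endo and 0.0395, 0.471 and 16.6 CPM in co-culture, and RSPO3 had 0.592, 1.29 and 4.31 CPM and 0.256, 2.06 and 30.6 CPM. Their medians lay closer together than their highest values, and with the uterus as a replicate block neither passed the test (adjusted p = 0.0636 and 0.321). FRZB, a secreted Wnt inhibitor, was called at 1.40 (adjusted p = 0.0476; 0.375 with the block). Of 30 hedgehog pathway genes outside the group, 1 was called higher in endometrium (4.98% of all genes), BOC, a hedgehog co-receptor like GAS1. It went from 14.3, 20.8 and 35.5 CPM to 15.6, 34.9 and 227 CPM, a log2 fold change of 1.258 (SE 0.35, adjusted p = 0.0204; 0.0839 with the block).

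In conceptus tissue 1 of 49 other Wnt pathway genes was called lower, against 3.65% of all genes, with a median of -0.15 over the list. APC, a scaffold of the complex that degrades beta-catenin, went from 57.0, 69 and 76.5 CPM in IVD Conc (68.6 ± 6.86, SD, n = 8) to 29.1, 47.4 and 65.4 CPM in co-culture (48.0 ± 10.5, SD, n = 9). The log2 fold change was -0.51 (SE 0.13, edgeR p.adj = 0.0299; 0.0709 with the conceptus as a block), and it was higher in 0 of 7 conceptuses. Of 26 other hedgehog genes 1 was called lower (3.65% of all genes), DISP1, which releases hedgehog ligands from the cells that make them. It went from 5.42, 6.86 and 13.2 CPM to 3.37, 5.05 and 6.31 CPM, a log2 fold change of -0.63 (SE 0.19, adjusted p = 0.0488; 0.0852 with the block). The groups of APC overlapped, as did those of DISP1.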

How the data were processed

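The authors deposited whole-number read counts per gene for each tissue, unnormalized, from poly(A) libraries trimmed with Trimmomatic, aligned to ARS-UCD1.2 with STAR (endometrium) or HISAT2 (conceptus) and counted with featureCounts. Neither tool versions nor a strand setting were found in the sources used here, so reads of a gene and an antisense neighbour cannot be told apart. No symbol was given for 6635 endometrial and 2031 conceptus genes, and 1 blank row was dropped. IVP libraries were not analysed here. All IVD Conc libraries that the labels list were used, although the study's text counts fewer.

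Counts were fitted per tissue in R 4.3.3 with edgeR 4.0.16 (TMM, expression filter, robust quasi-likelihood test, Benjamini-Hochberg adjustment over all genes tested, called at 0.05), and responses were compared between tissues in 1 joint fit. The fits were also run on simulated counts of independent libraries, with the same spread for every gene and no animal effect. Such counts cannot show how the fits act on libraries that share an animal. Alternatives used DESeq2 1.42.0, its size factors, no filter, blocks by animal or by the inferred culture set defined above, 2 residual factors, limma 3.58.1 voom and leaving out each animal. The study accounted for unwanted variation with factors of a kind and number not found in its methods, so no such factor is in the reported fits. Library names pair cultures by animal: deviations of libraries of 1 animal correlated above 0.1 in 15 of 15 endometrial pairs (lowest 0.111) and 9 of 9 conceptus pairs (lowest 0.170).

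The members and gene lists were chosen with earlier results of these data known. Values are given for GAS1, ROR1 and IHH, for every member called with or without the block, and for called genes of the other pathway lists, and further members were named to fill the classes. The most abundant member per class was also to be named and promoters searched, but no gene lengths or promoters were used here, so levels are not compared between genes.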

Additional observations from a re-analysis of the deposited data

Results flagged for a closer look

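Of 78 combinations of conceptus member and culture group, 6 had a section far from the others, by its gap to the next value over the range. The nominal rate of this rule is about 1 in 20, for independent and normally spread values. The share of all genes flagged was not counted, so the 6 are a description only. The endometrial groups, of more than 10 libraries, were not examined. Of the sections cultured alone, conceptus 66 had 10.7 CPM of FZD7, against a median of 26.3 CPM in the other 7. In co-culture, conceptus 71 on uterus 70 had 0.151 CPM of HHIP, against 1.70 CPM in the others. The section of conceptus 50 on uterus 38 stood apart in 4 members: FZD9 was high there at 2.51 CPM (others 0.707), PTCH1 low at 8.79 CPM (others 19.8), WNT7B low at 0.771 CPM (others 8.53) and WNT9A at 0 CPM (others 0.381).

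The response to co-culture differed between endometrium and conceptus tissue for 7 of 38 members, where 17.6% of all genes differed, given as endometrial minus conceptus log2 fold change: GAS1 2.29, WNT5A 2.05, DKK1 1.89, ROR1 1.81, FZD7 1.02, LRP6 0.92 and LRP5 -0.82.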

How the results depend on the processing

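Counts of members called moved with the settings. In endometrium (1 called) there were 3 with DESeq2 (8.02% of all genes called), 2 with the uterus as a replicate block (10.5%), 4 with 2 residual factors (17.2%), and 0 with the block on summed co-cultures (7.99%), with the culture set as a block (6.42%), without uteri 38 and 69 (5.2%), and with the smooth muscle level in the fit (6.25%, chosen after seeing the data), beside 7.13% in the reported fit; leaving out each uterus gave 0 to 1. In conceptus tissue (2 called) there were 5 with DESeq2 (15.7% of all genes), 3 with the conceptus as a replicate block (4.43%), 6 with the block on summed co-cultures (14.7%), 1 with the culture set as a block (1.68%), 7 with 2 residual factors (28.9%) and 1 without the 2 sections richest in POU5F1 (2.41%, chosen after seeing the data), beside 7.24% in the reported fit; leaving out each conceptus gave 0 to 1. The fits that left out 1 animal called 4.91% to 8.45% of all genes in endometrium and 0.658% to 8.7% in conceptus tissue. Members that differed between tissues numbered 6 to 9 in all alternatives (7 reported), where 12.5% to 22.5% of all genes differed (17.6% reported). Of 347 refits of 17 fold changes, 289 kept direction and side of the threshold, 34 lost the call, 9 gained it and 15 turned direction. GAS1 in endometrium turned to -0.023 (block, summed), -0.17 (culture set), -0.23 (without uteri 38 and 69) and -0.39 (smooth muscle level), and lay between -0.11 and 0.55 without each uterus. IHH lay between -1.09 and 0.044 in endometrium without each uterus, and in conceptus tissue turned to 0.39 (replicate block), 0.47 (block, summed), 0.15 (culture set), 0.044 (2 residual factors) and 0.38 (hypoblast level), with -0.26 to 0.17 without each conceptus. Correlations of IHH without each uterus ran from -0.0845 to 0.764 with PTCH1, from -0.177 to 0.362 with GLI1, from -0.101 to 0.181 with HHIP, from -0.462 to 0.264 with GAS1 and from -0.374 to -0.123 with NR2F2. The causes were not tested. In conceptus tissue GAS1 kept its call in the 9 alternatives that leave out no single conceptus (adjusted p = 0.000225 to 0.0420 from edgeR or DESeq2). Members with few reads, such as WNT9B, are limited by depth.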

Other observations

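WNT11, a ligand with roles in cell movement in vertebrate embryos, had 226 CPM in the section of conceptus 50 co-cultured on uterus 38, against 12.1 to 53.5 CPM in the other 8 co-cultured sections. The section of the same conceptus alone had 88.0 CPM, the highest of the 8. WNT16 had 5.03 CPM in conceptus 66 alone and 0.729 CPM in its co-cultured section, each the highest of its group, and at most 1.40 CPM in any other section. In endometrium 4 uteri had a pair of co-cultured explants. WNT7A was alike in those of uterus 14, at 3.557 CPM with conceptus 8 and 3.568 CPM with conceptus 26. In uterus 19 it had 0.855 CPM with conceptus 22 and 0.182 CPM with conceptus 47. It differed most within uteri 39 and 38. Uterus 39 had 8.58 CPM with conceptus 26, 0.123 CPM with conceptus 8 and 0.0319 CPM alone. Uterus 38 had 5.88 CPM with conceptus 66, 0.193 CPM with conceptus 50 and 0.987 CPM alone. Epithelial markers differed between the explants of these 2 uteri: CDH1 was at 409 and 129 CPM, and MUC1 at 368 and 115.5 CPM, in uterus 39 with conceptus 26 and with conceptus 8, and CDH1 was at 388 and 109 CPM, and MUC1 at 272 and 37.1 CPM, in uterus 38 with conceptus 66 and with conceptus 50. In the same order, OVGP1 lay the other way, at 4.17 and 6.66 CPM in uterus 39 and at 4.485 and 5.17 CPM in uterus 38. FOXA2 was at 8.17 and 4.77 CPM in uterus 39 and at 5.78 and 5.75 CPM in uterus 38. The part of epithelial cells in the WNT7A levels was not tested.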
